A study of Mus musculus with 2 samples.

Results

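The 32 genes described here are the listed members of the hypoxia response and of glycolysis, from the glucose transporter Slc2a1 to the mitochondrial protein Higd1a. They were found by symbol, and all 32 were listed in both deposited tables, of 14976 genes that the tables share. The study used droplet single-cell RNA sequencing of mouse CD45-/CD31+ cells, a gate meant to hold endothelium and leave out leukocytes. The tumor library (TECs, tumor endothelial cells) came from pooled E0771 tumors, a mouse mammary cancer line grown in the mammary gland, and the normal library (NECs, normal endothelial cells) came from pooled mammary glands of C57BL/6 mice aged 6 to 8 weeks. For the tumor library the labels give no strain, age or treatment, while the study's methods describe female mice of 8 weeks on a C57BL/6 background throughout, without saying which strain bore these tumors. The cell type and tissue fields of the normal library name TECs and E0771, so the library was read as normal from its title and from the study's design. There was 1 library per group, so no test between groups was possible and cells are not treated as replicates.

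Cells were kept when they had 200 or more genes, under 10% mitochondrial UMIs (unique molecular identifiers, 1 per captured RNA molecule) and no UMI of Ptprc, Myh11, Epcam or Cspg4. A kept cell was called endothelial when Cdh5 plus Pecam1 had at least 1 UMI and more than Rhox5, Hmga2 and Krt8 together, and cancer-like when the latter sum was higher. The rule left 4912 NECs of 9047 barcodes, and 261 TECs and 183 cancer-like cells of 704 barcodes. The libraries shared 3 barcodes, of which 1 belonged to classified cells. The class rule itself fixes most of the Cdh5 and Pecam1 levels. The 8 endothelial markers that the rule did not use stood in cancer-like cells at 0.941% of their TEC level.

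Depth differed strongly between the classes. The median cell had 2984 UMIs in NECs, 16989 in TECs and 51995 in cancer-like cells, and the classes summed to 17283940, 4646103 and 10325391 UMIs. Levels are therefore given as CPM (counts per 1e6), the summed UMIs of a gene scaled by all UMIs of the class, with exact 95% Poisson intervals in the plots. Ratios carry exact 95% intervals for 2 counts, and shares of cells carry exact Clopper-Pearson intervals in the plots. All of these cover counting error only, not differences between mice, tumors or libraries.

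Cells meet low oxygen through the hypoxia-inducible factors (HIFs), whose alpha subunits (Hif1a, Epas1) are hydroxylated by prolyl hydroxylases (Egln1, Egln3) and destroyed while oxygen is present. When oxygen falls, the alpha subunit is stabilised and, with its partner Arnt, switches on genes for glucose uptake, glycolysis, lactate export, mitochondrial clearance and angiogenesis. Endothelial cells are known to make much of their ATP by glycolysis even when oxygen is plentiful, and glycolytic flux is raised in sprouting vessels.

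The first comparison asked how these genes differed between vessels of the tumor and vessels of the normal gland. Most of the lower part of glycolysis was several times higher in TECs, together with the exporter of lactate and the HIF targets Egln3 and Ankrd37. Epas1, the HIF alpha subunit that is abundant in endothelium, was lower, as were Ndrg1, Ddit4 and Vegfa. Of the 32 genes, 31 had 50 or more UMIs over the 2 classes together and were compared, and 16 of them were higher by 2-fold or more, 4 were lower and 11 lay between. Over all 11040 genes compared, 10.1% were higher and 22.4% lower by that measure. The median log2 ratio was 1.01 over the members and -0.20 over all genes compared.

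**Figure D1:**
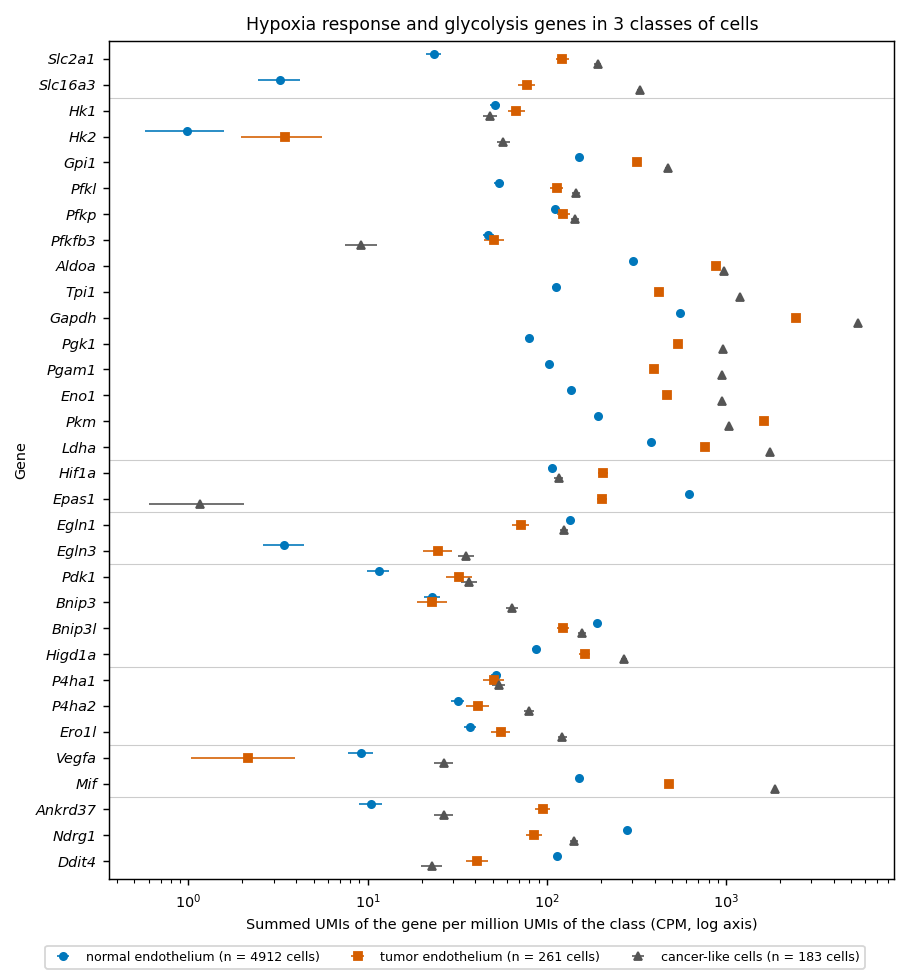
Level of each of the 32 genes in normal endothelium (4912 cells), tumor endothelium (261 cells) and cancer-like cells (183 cells), in CPM on a log axis, with exact 95% Poisson intervals that cover counting error only and gray lines between roles. Tumor endothelium lies to the right of normal endothelium for Slc2a1, Slc16a3 and most glycolytic enzymes and to the left for Epas1, Ndrg1, Ddit4 and Vegfa, and cancer-like cells have almost no Epas1.

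The transporters for glucose uptake and lactate export were both higher in TECs. Slc2a1, the glucose transporter GLUT1 (chromosome 4, 119108711-119137983, plus strand, mm10 coordinates from GENCODE), was at 23.4 CPM in NECs and 122 CPM in TECs, a 5.22-fold difference (interval 4.59 to 5.95). Slc16a3, the lactate exporter MCT4 (chromosome 11, 120948480-120960868, plus strand), was at 3.24 CPM in NECs and 77.3 CPM in TECs, 23.8-fold higher (interval 18.0 to 32.2). Slc16a3 had the largest ratio of the 31 genes compared and exceeded 99.7% of all genes compared, and without cells that held a Top2a or Mki67 UMI its log2 ratio was 3.97, against 4.58. After every cell was thinned to 1900 UMIs, 3.79% of NECs and 18.8% of TECs had a Slc2a1 UMI, and 0.445% and 7.95% had a Slc16a3 UMI. Unthinned, the Slc2a1 shares were 6.72% and 59.8% and the Slc16a3 shares 1.12% and 37.5%, at unequal depth. Thinning left out cells under 1900 UMIs and so kept 3824 of the 4912 NECs, 239 of the 261 TECs and 169 of the 183 cancer-like cells.

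Of the 14 glycolytic genes, 13 were compared, 10 were higher in TECs and none was lower by 2-fold. Pkm, pyruvate kinase (chromosome 9, 59656368-59679375, plus strand), was at 193 CPM in NECs and 1628 CPM in TECs, 8.44-fold higher (interval 8.10 to 8.79). Pgk1, phosphoglycerate kinase (chromosome X, 106187100-106203699, plus strand), went from 79.4 to 537 CPM, 6.77-fold higher (interval 6.33 to 7.23). Gapdh, the dehydrogenase that opens the second phase of the pathway, was at 557 CPM in NECs and 2471 CPM in TECs, 4.44-fold higher (interval 4.32 to 4.56). The other enzymes from aldolase to enolase followed, with Pgam1 at 3.84-fold, Tpi1 at 3.75-fold, Eno1 at 3.44-fold and Aldoa at 2.88-fold.

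The upper steps differed less. Gpi1 was 2.10-fold and Pfkl, the liver form of phosphofructokinase, 2.11-fold higher, while Hk1 (1.32-fold), Pfkp (1.11-fold) and Pfkfb3 (1.08-fold, interval 0.931 to 1.25) stayed between the limits. Thinning brought Pfkl inside the limits as well (log2 ratio 0.42). Pfkfb3 makes the activator of phosphofructokinase and is known for its role in vessel sprouting. Ldha, the lactate dehydrogenase subunit that favours lactate, went from 381 to 767 CPM, 2.01-fold higher (interval 1.93 to 2.10) and so just past the limit, and its log2 ratio was 0.68 after thinning. Hk2, the inducible hexokinase, had only 17 UMIs in NECs and 16 in TECs and was not compared. Of its TEC UMIs, 81.2% came from 1 cell.

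At equal depth the shares of cells with a UMI were also higher in TECs for the 3 most raised of these enzymes. A Pkm UMI was found in 29.7% of 3824 thinned NECs and 90.4% of 239 thinned TECs, the widest gap of the 32 genes in percentage points (42.8% and 96.9% unthinned). Pgk1 went from 13.8% to 50.2% and Gapdh from 61.5% to 92.9%. Genes of this kind are used by every cell, so no cell type here could be taken to lack them and serve as a measure of free RNA. Several of them, such as Gapdh, have near-identical pseudogene copies in the mouse genome, and how reads shared with a copy were counted is not given in the sources used here, so their levels carry that uncertainty.

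**Figure D2:**
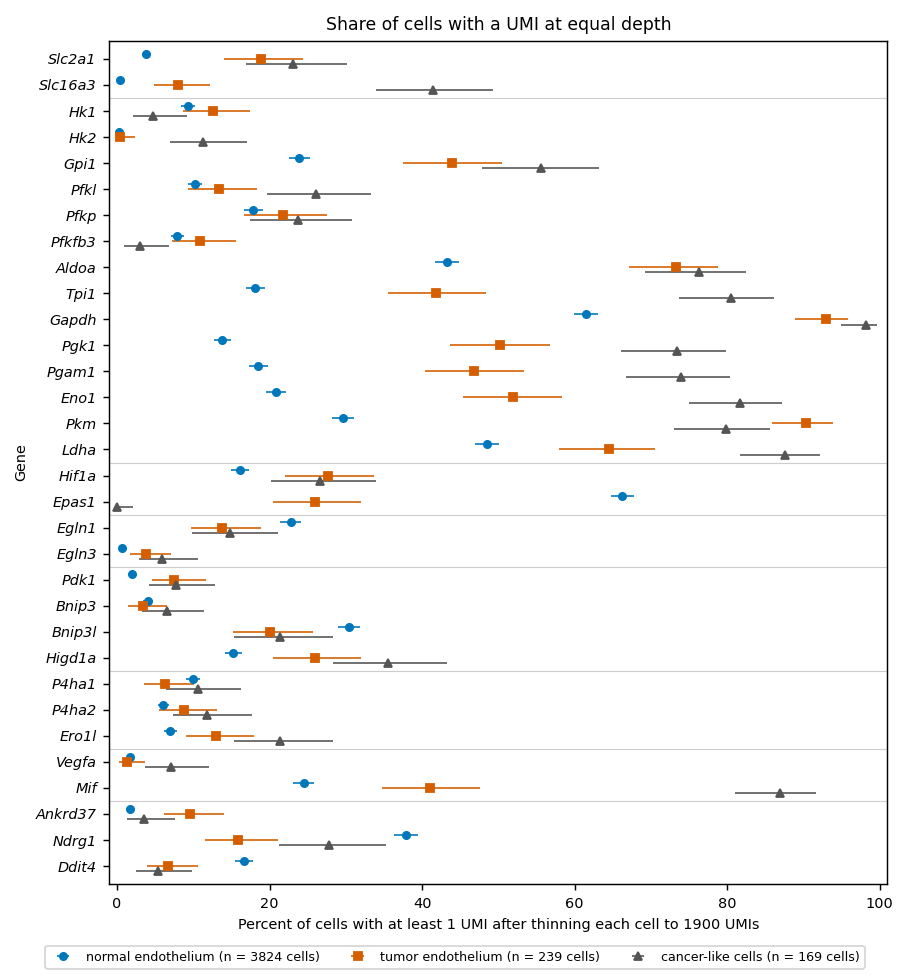
Percent of cells with at least 1 UMI of each gene after each cell was thinned to 1900 UMIs, in 3824 normal endothelial, 239 tumor endothelial and 169 cancer-like cells, with exact 95% Clopper-Pearson intervals that cover counting error only. Pkm goes from 29.7% of normal to 90.4% of tumor endothelial cells, whereas Epas1 goes from 66.3% to 25.9% and to 0 of 169 cancer-like cells. For this count of 0, 3 counts, or 1.78% of cells with a UMI at this depth, are an approximate limit, and the plotted interval is the exact one.

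The HIF alpha subunits moved in opposite directions. Epas1 (HIF-2 alpha; chromosome 17, 86753700-86833410, plus strand) was at 622 CPM in NECs and 203 CPM in TECs, 3.06-fold lower (interval 2.86 to 3.27). Hif1a (HIF-1 alpha) was at 107 CPM in NECs and 206 CPM in TECs, 1.93-fold higher (interval 1.78 to 2.09) and so just under the 2-fold limit. NECs thus held several times more Epas1 than Hif1a UMIs (10746 and 1847), while TECs held about as many of the one as of the other (944 and 959). A UMI counts a molecule whatever its length. HIF activity is set largely by protein stability, which was not measured.

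The prolyl hydroxylases also split. Egln3 (PHD3; chromosome 12, 54178981-54203860, minus strand), itself a HIF target, was at 3.41 CPM in NECs and 24.8 CPM in TECs, 7.25-fold higher (interval 5.25 to 10.1). The TEC richest in Egln3 held 24.3% of its UMIs, and the ratio was 5.51-fold without that cell, while among cells under 5% mitochondrial UMIs it was 11.8-fold. Egln1 (PHD2), the main sensor, went the other way, from 135 to 71.9 CPM (log2 ratio -0.91, interval -1.08 to -0.74), within the limits. Ankrd37, an ankyrin-repeat HIF target (chromosome 8, 45996902-46005707, minus strand), was at 10.4 CPM in NECs and 95.1 CPM in TECs, 9.13-fold higher (interval 7.66 to 10.9). The TEC richest in Ankrd37 held 17.4% of its UMIs, and the ratio was 7.62-fold without that cell.

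Genes that act on mitochondria or in the endoplasmic reticulum differed little or in mixed directions. Pdk1, the kinase that keeps pyruvate out of mitochondria, went from 11.5 to 32.5 CPM, 2.82-fold higher (interval 2.27 to 3.51). Bnip3, a receptor for mitochondrial clearance, was at 22.9 and 23.0 CPM (log2 ratio 0.01, interval -0.31 to 0.32), and its relative Bnip3l at 190 and 123 CPM. Higd1a, a respiratory chain factor, was 1.87-fold higher. The collagen prolyl hydroxylases P4ha1 (log2 ratio -0.05) and P4ha2 (0.37) and the oxidase Ero1l (0.57) all lay between the limits.

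The secreted factors and stress genes completed the list. Mif, a cytokine, went from 152 to 481 CPM, 3.17-fold higher (interval 2.99 to 3.35). Vegfa, the main angiogenic ligand, was scarce in both, with 159 UMIs (9.20 CPM) in NECs and 10 UMIs (2.15 CPM) in TECs, 4.27-fold lower (interval 2.26 to 9.09). With cells thinned to 1900 UMIs the log2 ratio of Vegfa was -0.48, within the limits, and 1.65% of NECs and 1.26% of TECs had a UMI. As a mean over cells the log2 ratio of Vegfa was -0.91, and it was -2.84 in cells under 5% mitochondrial UMIs and -2.70 without cells that held a Top2a or Mki67 UMI. Ndrg1 was at 282 CPM in NECs and 85.0 CPM in TECs, 3.32-fold lower (interval 3.0 to 3.69), and Ddit4, an inhibitor of mTORC1, at 114 and 40.9 CPM, 2.80-fold lower (interval 2.41 to 3.26). Ankrd37, Ndrg1 and Ddit4 are all known as hypoxia-induced, and they did not move as a block.

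**Figure D3:**
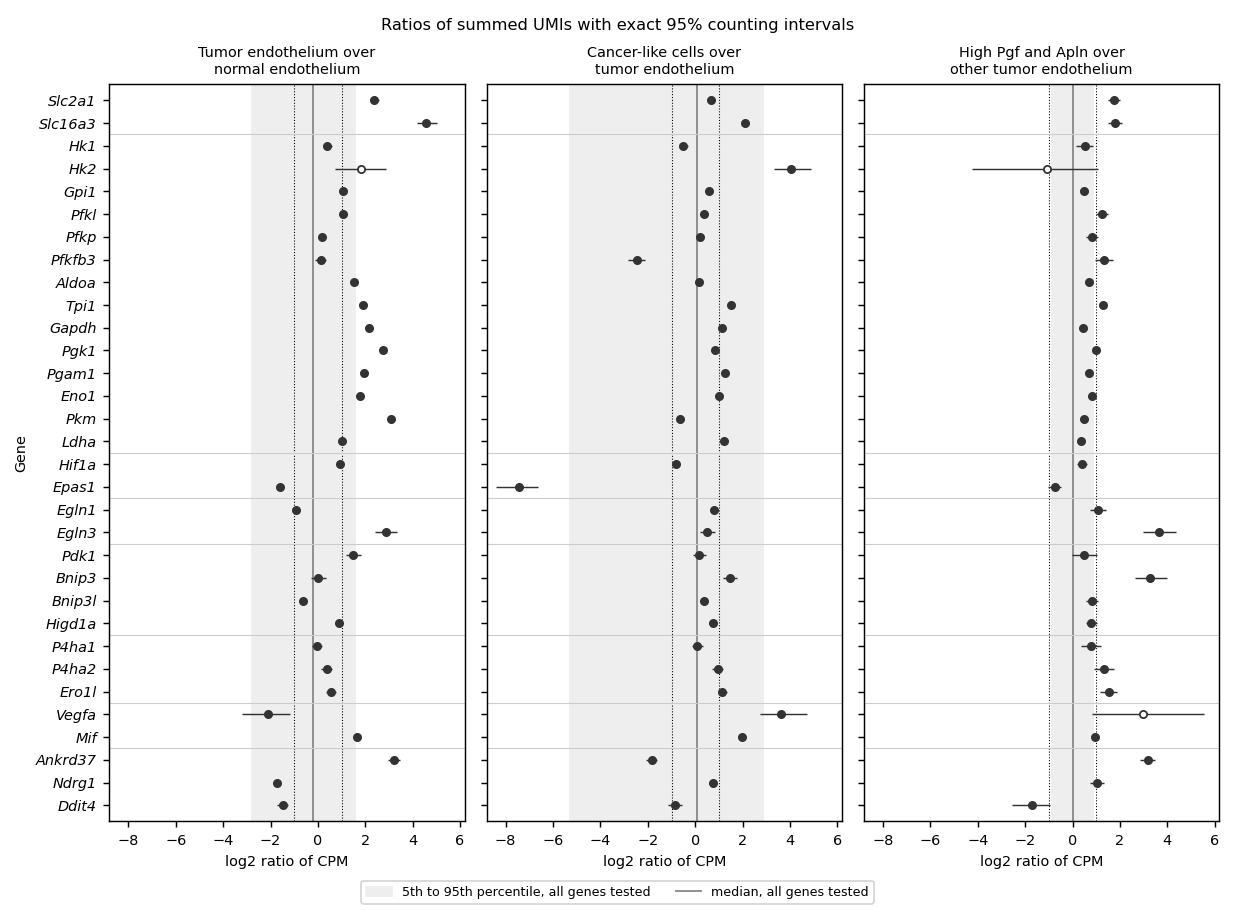
Log2 ratio of CPM for each gene in 3 comparisons, with exact 95% counting intervals; the gray band spans the 5th to 95th percentile of all genes compared, the gray line is their median, dotted lines mark 2-fold, and open points were not compared for low counts. In the left panel 16 genes lie right of the upper dotted line and 4 left of the lower one, and in the right panel Egln3, Bnip3 and Ankrd37 lie farthest right among the genes compared.

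Among related genes outside the list, those compared did not move with it as a whole. The other glycolysis genes were scarce, summing to 65.4 CPM in TECs and 160 CPM in NECs. Of the 15 listed, 5 were at 0 in TECs and 1 was at 0 in NECs. NECs held more UMIs in all, so a scarce gene reached the minimum of UMIs more readily when higher in NECs. The direction of the whole list is therefore not known. Of 18 other glycolysis genes, 8 were compared, none was higher and 5 were lower, with a median log2 ratio of -1.73. They included Slc16a1, the lactate carrier MCT1, at 76.7 CPM in NECs and 9.04 CPM in TECs (8.49-fold lower), and the transporter Slc2a3 and the red-cell enzyme Bpgm at log2 ratios of -1.89 and -1.56. MCT1 and MCT4 thus changed in opposite directions, since Slc16a3 was 23.8-fold higher. Of 24 other HIF target genes, 21 were compared, and 6 were higher, 5 lower and 10 between, with a median of 0.17. Among the higher ones were the peptide Adm (10.9 to 257 CPM, 23.5-fold) and Stc2 (2.59-fold). Among the lower ones, Rora, Kdm3a and Bhlhe40 were 5.01-fold, 3.14-fold and 2.67-fold lower.

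Neighbouring pathways were read in the same way. Of 8 HIF subunits and regulators compared, Arnt was 2.12-fold lower and 7 lay between. Of 13 genes of pyruvate oxidation and the TCA cycle, Idh3a was 2.25-fold higher and 12 lay between, with a median of 0.51. Of 7 pentose phosphate genes, Pgd (3.0-fold) and Tkt (2.46-fold) were higher and 5 lay between.

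Markers that moved alongside were measured in the same way. Immediate early and heat shock genes, which respond to tissue dissociation, summed to 9816 CPM in NECs and 2532 CPM in TECs, and 8 of 10 were lower in TECs by 2-fold or more, led by Egr1 (8.65-fold), Fos (4.61-fold) and Junb (4.56-fold). The 7 mitotic markers summed to 92.6 CPM in NECs and 550 CPM in TECs, and all 7 were higher in TECs. Red cell genes summed to 2402 CPM in NECs, with Hbb-bs the most abundant, and were at 0 in TECs. Salivary genes summed to 2055 CPM in NECs, with Bpifa2 the most abundant, and 95.4% of NECs had a UMI of any of the 5 salivary genes. The cancer marker Wfdc2 was in TECs at 3.24% of its level in cancer-like cells. The part of dissociation and of free RNA in these differences was not tested. With every cell thinned to 1900 UMIs, 16 members were higher and 3 lower. Without cells that held a Top2a or Mki67 UMI, 14 members were higher and 4 lower, and without TECs that held a UMI of Wfdc2, Rhox5, Hmga2 or Krt8, 15 were higher and 4 lower. No share of all genes called is given for these alternatives. Of the vessel-type markers, 5 of 8 arterial, 4 of 6 venous and 5 of 7 capillary genes were lower in TECs by 2-fold or more and none was higher, and whether the mix of vessel types differed was not tested.

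The members were also read across vessel types of the normal gland. A NEC was called arterial-like, venous-like or capillary-like after the marker list with the highest mean relative level in it, if it had UMIs of at least 2 genes of that list, which gave 1055, 626 and 2595 cells and left 636 unassigned. Epas1 was at 914 CPM in arterial-like, 610 in capillary-like and 408 in venous-like cells, so the tumor level of 203 CPM lay below each of them. Slc2a1 was at 14.8, 18.7 and 48.6 CPM in the same order, highest in venous-like cells (log2 ratio to capillary-like 1.38, interval 1.05 to 1.70), and the tumor level of 122 CPM lay above each. Slc2a1 in arterial-like and capillary-like cells did not differ beyond counting error (log2 ratio -0.34, interval -0.81 to 0.11).

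The lymphatic markers Prox1, Lyve1 and Mmrn1 lay with the venous-like class and with the unassigned cells. Pdpn was scarce, at 2.05 and 4.08 CPM there and at 0 and 0.493 CPM in arterial-like and capillary-like cells. Flt4 did not follow, at 32.5 CPM in venous-like, 57.5 in arterial-like, 55.3 in capillary-like and 88.7 in unassigned cells. In venous-like cells Prox1 was at 30.5, Lyve1 at 41.3 and Mmrn1 at 29.9 CPM, in unassigned cells they were at 9.68, 34.7 and 20.9 CPM, and in the arterial-like and capillary-like classes at 0 to 1.23 CPM. Of the venous-like cells 34 (5.43%) had a UMI of any of the 3 genes. Without these and the 14 capillary-like cells with such a UMI, an alternative chosen after seeing the data, the 592 venous-like cells left had Slc2a1 at 49.1 CPM and the 2581 capillary-like cells at 18.5 CPM (log2 ratio 1.40, interval 1.07 to 1.74). The venous-like cells left had Hif1a at 177 CPM and Ndrg1 at 434 CPM.

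Other members marked vessel types as well. Hif1a was at 173 CPM in venous-like cells and at 86.7 and 89.1 CPM in arterial-like and capillary-like cells, which were within counting error of each other. P4ha2, an enzyme of collagen maturation, was highest in arterial-like cells (56.4 CPM, against 28.3 in capillary-like and 18.2 in venous-like), and Ndrg1 in venous-like cells (421 CPM, against 278 and 242). Egln1 was highest in capillary-like cells at 168 CPM, with 94.1 CPM in arterial-like and 106 CPM in venous-like cells. Of the core enzymes, Pgk1 lay between 75.4 and 84.6 CPM and Gapdh between 532 and 576 CPM in the 3 types. Pkm ran from 165 CPM in arterial-like to 236 CPM in venous-like cells (log2 ratio of arterial-like to venous-like -0.52, interval -0.67 to -0.37), Aldoa from 282 CPM in capillary-like to 346 CPM in arterial-like cells and Eno1 from 109 CPM in venous-like to 134 CPM in capillary-like cells. Pkm and Pgk1 in TECs were therefore above every normal vessel type, as were Slc16a3 (2.83 to 4.39 CPM in the 3 types), Egln3 (1.85 to 4.39 CPM) and Ankrd37 (9.24 to 13.2 CPM).

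**Figure D4:**
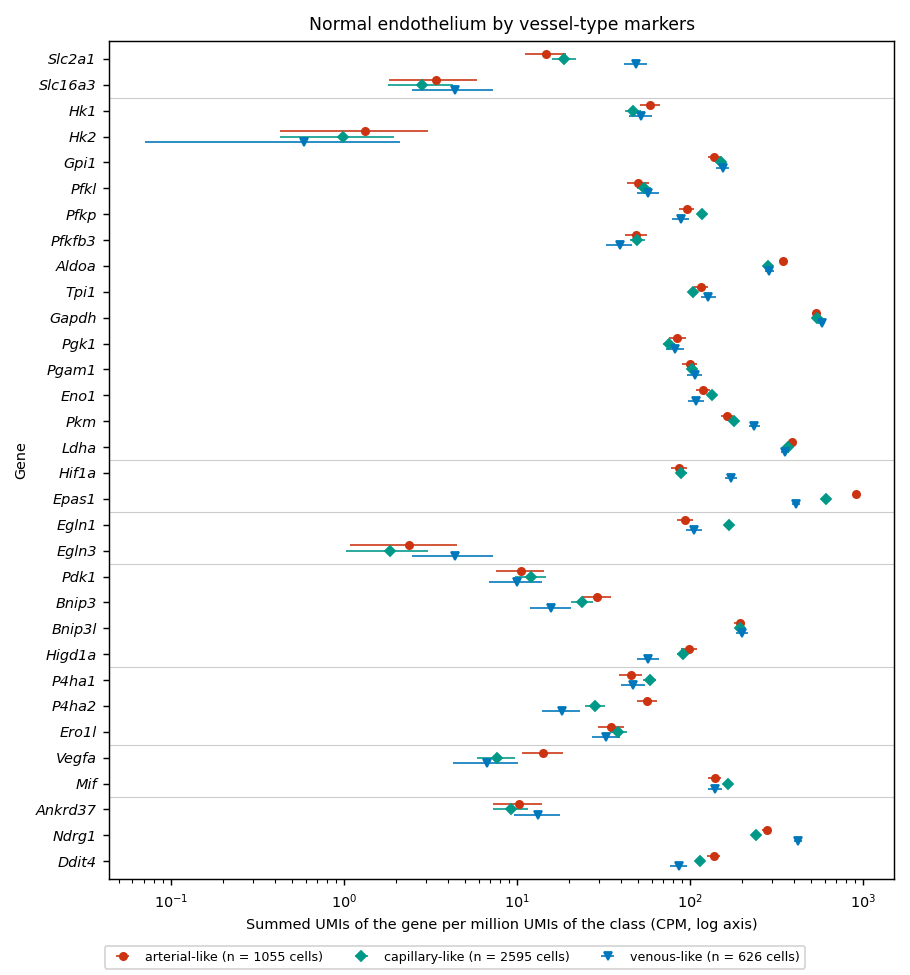
Level of each gene in normal endothelium called arterial-like (1055 cells), capillary-like (2595) and venous-like (626), in CPM on a log axis, with exact 95% Poisson intervals that cover counting error only. Epas1 and P4ha2 are highest in arterial-like cells, Slc2a1, Hif1a and Ndrg1 in venous-like cells and Egln1 in capillary-like cells, while Gapdh and Pgk1 are close in all 3.

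The second comparison set the cancer-like cells against the endothelium of the same library. Cancer-like cells held more Hk2, Vegfa, Slc16a3 and Mif, and almost no Epas1. Of the 14 glycolytic genes, 6 were higher by 2-fold or more, 1 was lower and 7 lay between. All 32 genes were compared, and 11 were higher by 2-fold or more, 3 lower and 18 between, beside 17.7% and 19% of all 10093 genes compared. The median log2 ratio was 0.70 over the members and 0.07 over all genes compared. Both classes passed through the same dissociation and library, but their depths differed, and the mitotic markers summed to 1049 CPM in cancer-like cells and 550 CPM in TECs.

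Hk2 was at 3.44 CPM in TECs and 57.2 CPM in cancer-like cells, 16.6-fold higher (interval 10.1 to 29.3). Since 1 TEC held 81.2% of the Hk2 UMIs of its class, the ratio was 87.8-fold without that cell. After thinning, 0.418% of TECs and 11.2% of cancer-like cells had a Hk2 UMI (1.53% and 66.7% unthinned), so the inducible hexokinase was mostly found outside endothelium in this library. Vegfa was at 2.15 CPM in TECs and 26.5 CPM in cancer-like cells, 12.3-fold higher (interval 6.60 to 26.0). The Vegfa ratio was 7.07-fold after thinning, 6.70-fold as a mean over cells, 18.8-fold in cells under 5% mitochondrial UMIs and 24.0-fold without cells that held a Top2a or Mki67 UMI. Slc16a3 was at 330 CPM in cancer-like cells, 4.27-fold above TECs (interval 3.83 to 4.78), and Mif at 1876 CPM, 3.90-fold above (6.06-fold without cells that held a Top2a or Mki67 UMI).

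Tpi1 (2.84-fold), Bnip3 (2.77-fold), Pgam1 (2.38-fold), Ldha (2.31-fold), Gapdh (2.21-fold), Ero1l (2.20-fold) and Eno1 (2.02-fold) were also higher in cancer-like cells. Of these, Bnip3 and Ero1l fell short of 2-fold after thinning, at log2 ratios of 0.99 and 0.68, and Eno1 did so in 4 alternatives, with 0.94 as its lowest value, when centred on the median of all genes. Without cells that held a Top2a or Mki67 UMI the ratios moved the other way, to 5.63-fold for Bnip3, 4.36-fold for Ero1l, 3.17-fold for Eno1 and 3.41-fold for Gapdh. In every comparison, having no such UMI depends on depth as well as on cycling, and the part of each was not tested. Pkm did not follow the genes higher in cancer-like cells, at 1628 CPM in TECs and 1040.1 CPM in cancer-like cells (log2 ratio -0.65, interval -0.69 to -0.60). The order of the classes thus differed by gene, with Gapdh, Tpi1 and Ldha rising from NECs to TECs to cancer-like cells and Pkm highest in TECs. Epas1 had 12 UMIs in cancer-like cells (1.16 CPM), 9 of them in 1 cell, against 944 in TECs (203 CPM), 175-fold lower (interval 99.6 to 340). With so few UMIs the size of the Epas1 ratio moved with the cells kept. It was 104-fold lower without cells that held a Top2a or Mki67 UMI and 645-fold lower without the deepest 5% of cells. Without cells that held a UMI of the other class's rule genes it was 1287-fold lower. After thinning, Epas1 had 0 UMIs in 169 cancer-like cells. With this 0 set to 3 counts, the ratio was at least 20.7-fold lower, which is a limit and not a measured size. Pfkfb3 was at 51.0 CPM in TECs and 9.20 CPM in cancer-like cells, 5.54-fold lower (interval 4.35 to 7.11). Ankrd37 was at 95.1 and 26.5 CPM, 3.58-fold lower (interval 3.08 to 4.18), and so was the only member more than 2-fold higher in TECs than in both other classes.

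Only 52 of the 183 cancer-like cells had no Top2a or Mki67 UMI, against 188 of the 261 TECs. Within those cells 20 members were higher and 2 lower, and Ankrd37 moved inside the limits (log2 ratio -0.99). The median log2 ratio over all genes was -0.21 there, against 0.07 with all cells. No share of all genes called is given for those cells, so the count of 20 has none to be set beside. Of the lists outside the members, 5 of 8 other glycolysis genes compared were higher in cancer-like cells and 1 was lower. Cancer-like cells held more UMIs in all than TECs, so here too a scarce gene was compared more readily when higher in the deeper class. Slc16a1 was at 67.3 CPM in cancer-like cells against 9.04 CPM in TECs. Adm, at 143 CPM against 257 CPM in TECs, lay between the limits. Of the TCA cycle genes, 12 of 13 lay between.

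The third comparison asked how the members differed among TECs. Tip cells, the leading cells of a vessel sprout, are known for Pgf, Apln and Adm. TECs with 1900 or more UMIs were ranked by Pgf plus Apln UMIs per 10000 UMIs, and the top 25% (60 cells) were set against the other 179. The last cell inside had a value of 13.06 and the first outside 13.03, and 20 cells lay within 25% of the limit, so the classes are ranges of a continuous measure. The 22 shallower TECs were in neither class. Median depth was close, at 16065 UMIs in the high cells and 18389 in the others. Since the cells were ranked on Pgf and Apln, a gene that rises with either is higher in the high cells by this choice. Whether Pgf and Apln themselves respond to hypoxia in these cells was not tested.

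Egln3, Bnip3 and Ankrd37, all known as direct HIF targets, were far more abundant in the cells with high Pgf and Apln, and transcripts of the transporters Slc2a1 and Slc16a3 were higher as well. The glycolytic enzymes differed less. Of the 32 genes, 30 were compared, and 12 were higher by 2-fold or more, 1 lower and 17 between, beside 3.41% and 3.77% of all 7539 genes compared. The median log2 ratio was 0.82 over the members and 0.02 over all genes compared.

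Ankrd37 was at 33.5 CPM in the other cells and 302 CPM in the high cells, 9.01-fold higher (interval 7.28 to 11.2). Egln3 was at 6.75 and 84.6 CPM, 12.5-fold higher (interval 7.92 to 20.6), and Bnip3 (chromosome 7, 138890836-138909519, minus strand) at 7.60 and 74.3 CPM, 9.78-fold higher (interval 6.25 to 15.7). These 3 exceeded 99.9% of all genes compared. The cell richest in Egln3 held 31.1% of the Egln3 UMIs of the high class, and the ratio was 8.83-fold without that cell. The cell richest in Ankrd37 held 24.0% of the Ankrd37 UMIs of the class, and the ratio was 7.18-fold without that cell. Bnip3 was 6.42-fold higher when the top 10% of cells were taken. After thinning it was 26.9-fold higher, but only 1 of the 179 other cells then had a Bnip3 UMI, so this size is uncertain. After thinning, an Egln3 UMI was found in 15.0% of the high cells and in 0 of 179 others. A count of 0 allows a share of up to 1.68% (3 counts of 179), which limits cells with a UMI at this depth and not cells that express the gene. For Ankrd37 the shares were 28.3% and 3.35%, and for Bnip3 11.7% and 0.559%. Unthinned, an Egln3 UMI was found in 43.3% and 8.94%, an Ankrd37 UMI in 73.3% and 29.1% and a Bnip3 UMI in 40.0% and 11.7%.

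Bnip3 was at almost the same level in NECs and TECs as a whole (22.9 and 23.0 CPM). Among TECs it lay above the NEC level in the high cells and below it in the others. Seen by where the UMIs lay, the 60 high cells held 23.0% of the UMIs of the 239 ranked cells but 78.9% of those of Egln3, 74.5% of Bnip3, 73.0% of Ankrd37 and 50.2% of Slc2a1.

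**Figure D5:**
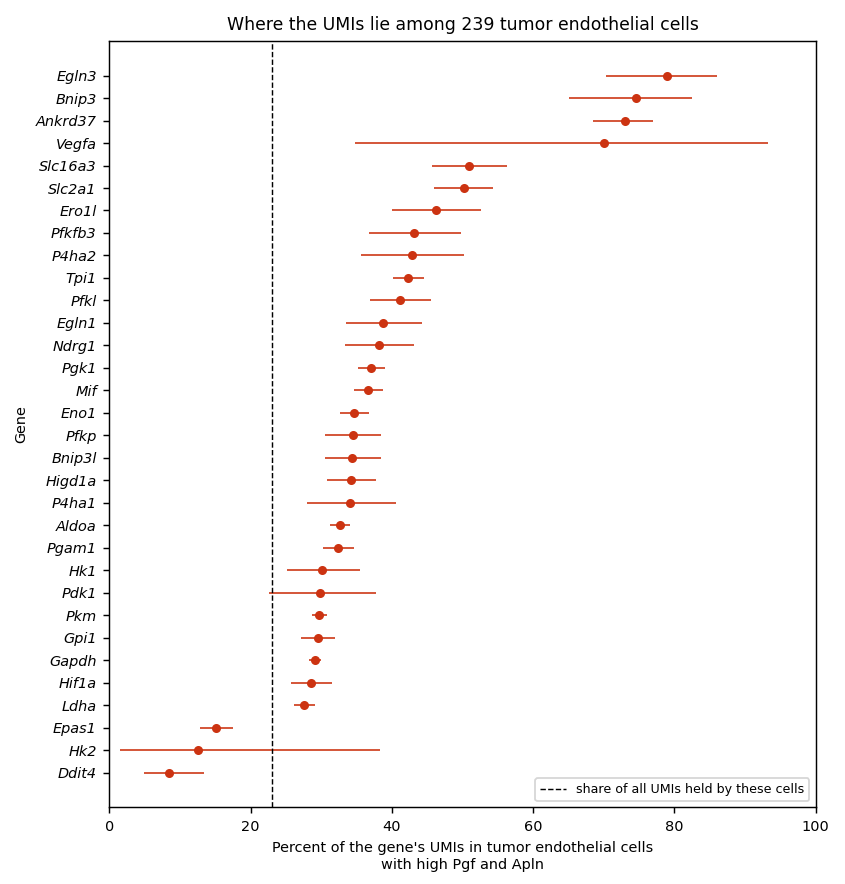
Percent of each gene's UMIs that lay in the 60 tumor endothelial cells with high Pgf and Apln, out of 239 ranked cells, with exact 95% Clopper-Pearson intervals that cover counting error only; the dashed line is the 23.0% of all UMIs that these cells held. Among the genes compared, Egln3, Bnip3 and Ankrd37 lie highest, between 73.0% and 78.9%, and Ddit4 lies at 8.47%.

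The transporters came next. Slc16a3 was at 49.2 CPM in the others and 171 CPM in the high cells, 3.48-fold higher (interval 2.81 to 4.30), and Slc2a1 at 79.3 and 267 CPM, 3.37-fold higher (interval 2.84 to 3.98). In the other cells both were still above their NEC levels of 3.24 and 23.4 CPM. Of the 13 glycolytic genes compared, Pfkfb3 (2.54-fold), Tpi1 (2.45-fold) and Pfkl (2.34-fold) were higher and 10 lay between, with a median log2 ratio of 0.70. After thinning Pfkfb3 was 3.84-fold higher. Pgk1 reached 1.97-fold, whereas Pkm, Gapdh and Ldha rose less, at log2 ratios of 0.50, 0.46 and 0.35. These 3 still lay above the median of 0.02 over all genes compared, beyond counting error. Pfkfb3 was the reverse of Pkm, with a larger ratio among TECs and with TEC and NEC levels that were alike as a whole (1.08-fold).

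The endoplasmic reticulum genes Ero1l (2.88-fold) and P4ha2 (2.51-fold), the sensor Egln1 (2.11-fold) and Ndrg1 (2.06-fold) were higher in the high cells. Thinned to 1900 UMIs, Ero1l, Egln1 and Pfkl fell short of 2-fold, at log2 ratios of 0.86, 0.80 and 0.82. Egln1 also did so when the high cells were those with a UMI of each of Pgf and Apln (0.90). It was at 0.88 without cells that held a Top2a or Mki67 UMI, and at 0.95 without TECs that held a cancer marker UMI. Ndrg1 fell short in 8 alternatives, with 0.72 as its lowest value, without cells that held a Top2a or Mki67 UMI. Thinning moved Ndrg1 the other way, to a log2 ratio of 1.96. Ndrg1, lower in TECs than in NECs, was at 141 CPM in the high cells, still below its NEC level of 282 CPM. Ddit4 was the only member lower by 2-fold, at 48.7 CPM in the others and 15.0 CPM in the high cells, 3.24-fold (interval 1.94 to 5.79), and its log2 ratio was -0.82 when the top 10% of cells were taken. Epas1 was at 224 and 133 CPM (log2 ratio -0.75, interval -1.02 to -0.49) and Hif1a at 192 and 256 CPM (0.42, interval 0.21 to 0.62). Vegfa had 3 UMIs in the others and 7 in the high cells, and Hk2 had 14 and 2, so neither was compared.

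Splitting the 239 cells by the presence of each marker gave 64 cells with neither, 11 with Pgf alone, 93 with Apln alone and 71 with both. Ankrd37 was at 30.2, 39.5, 35.6 and 228 CPM in that order, and Slc2a1 at 69.1, 158, 87.1 and 206 CPM. Ankrd37 was thus highest in cells that had both. The presence of a UMI depends on depth, and the median cell had 13220, 3469, 23566 and 19955 UMIs in the same order. Top2a, a mitotic marker, was at 63.7, 0, 115 and 26.1 CPM, and the part of depth and of cycling in these levels was not tested. Epas1 had the reverse order, at 362, 158, 185 and 131 CPM. The class with Pgf alone has only 101338 UMIs, so its values are the least certain.

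Outside the members, 9 of 14 other HIF target genes compared were higher in the high cells and none was lower, with Adm at 61.9 and 916 CPM (14.8-fold, interval 12.8 to 17.2). Adm is also a tip cell marker, so it counts under both headings. All 13 TCA cycle genes, all 7 pentose phosphate genes, all 8 HIF subunits and regulators and all 10 immediate early and heat shock genes lay between the limits. The 7 mitotic markers summed to 359 CPM in the high cells and 607 CPM in the others, with 1 lower by 2-fold and 6 between. Arterial markers summed to 121 CPM in the high cells and 321 CPM in the others, with 3 of 5 compared lower, and venous markers to 231 and 564 CPM, with 2 of 4 lower. Capillary markers summed to 2698 and 3007 CPM, with 1 of 4 lower, and the part of vessel type in the member ratios was not tested. Wfdc2 was at 2.44% of its cancer-like level in the high cells and 3.36% in the others. The lymphatic gene Lyve1 was at 80.9 CPM in the high cells, with a UMI in 10.0% of them, while Prox1 and Mmrn1 were at 0 there.

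Because Egln3, Bnip3, Ankrd37 and Slc2a1 were higher together, their promoters are shown, as 250 bases before and 50 after the RefSeq start site (GRCm38.p6, read on the gene's strand). The letters ACGTG and GCGTG, the forms of the core that HIFs bind, were searched on both strands. Capitals mark each match, so a match on the opposite strand reads CACGT or CACGC, and neighbouring matches can overlap.
Ankrd37, chr8:45999801-46000100, minus strand: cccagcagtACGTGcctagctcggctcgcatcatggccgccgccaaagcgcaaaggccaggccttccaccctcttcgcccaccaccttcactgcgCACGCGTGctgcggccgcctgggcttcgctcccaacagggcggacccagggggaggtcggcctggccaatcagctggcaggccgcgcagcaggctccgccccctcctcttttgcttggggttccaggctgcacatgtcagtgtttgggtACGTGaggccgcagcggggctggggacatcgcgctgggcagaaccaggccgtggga
Egln3, chr12:54203825-54204124, minus strand: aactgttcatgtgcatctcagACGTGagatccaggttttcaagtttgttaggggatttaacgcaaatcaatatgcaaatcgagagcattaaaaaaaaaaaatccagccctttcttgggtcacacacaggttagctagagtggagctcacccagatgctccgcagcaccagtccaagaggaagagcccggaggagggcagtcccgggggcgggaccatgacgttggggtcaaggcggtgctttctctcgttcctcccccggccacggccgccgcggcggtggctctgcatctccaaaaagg
Bnip3, chr7:138909457-138909756, minus strand: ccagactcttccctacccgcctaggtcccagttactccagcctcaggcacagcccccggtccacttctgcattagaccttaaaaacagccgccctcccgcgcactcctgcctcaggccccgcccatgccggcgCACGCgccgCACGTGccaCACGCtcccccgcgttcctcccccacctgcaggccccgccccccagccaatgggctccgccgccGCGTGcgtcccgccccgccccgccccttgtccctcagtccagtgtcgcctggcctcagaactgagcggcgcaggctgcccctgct
Slc2a1, chr4:119108495-119108794, plus strand: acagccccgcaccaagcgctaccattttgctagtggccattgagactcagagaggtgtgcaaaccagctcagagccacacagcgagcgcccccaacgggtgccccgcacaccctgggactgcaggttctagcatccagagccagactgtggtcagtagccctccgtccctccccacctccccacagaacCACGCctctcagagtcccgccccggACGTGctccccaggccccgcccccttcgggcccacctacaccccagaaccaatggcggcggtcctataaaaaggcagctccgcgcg

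The Bnip3 window held 5 matches in 4 stretches, all before the start site. Ankrd37 held 4 matches, Slc2a1 2 and Egln3 1, at position -229 from the start site. The RefSeq start site of Ankrd37 is 5857 bases from the outermost start in GENCODE, so the window is that of 1 transcript start among several. Windows were found for 29 of the 32 members (Ero1l under its current symbol Ero1a), and Epas1, Bnip3l and Ndrg1 had no entry. Of the 29, 23 (79.3%) held either form, beside 43.8% of all 32851 windows of the table, and 65.5% held ACGTG, beside 19.6%. Among the 11 windows of members higher in the high cells, 10 held either form, and among the 16 windows of members compared there and not higher, 12 did. These are matches of letters in a short window, and binding was not measured. The list was chosen for the hypoxia response, so an excess of these letters may follow from that choice. Each member counts with 1 window, while the table can hold several windows of a gene, and base content was not matched.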

How the data were processed

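Droplet single-cell libraries of CD45-/CD31+ cells from pooled tumors and pooled mammary glands were used as 2 tables of UMI counts per gene and cell, as deposited by the authors. The submitters' processing notes name Cell Ranger, Seurat and the build mm10 without versions, and the study's reporting summary gives Seurat 4.0. The counts are not normalized, and the tables hold 0 columns of other samples. The members, lists and classes were chosen with earlier results of these data known. UMIs were summed per class, scaled to CPM and compared as log2 ratios, with exact Poisson, conditional binomial and Clopper-Pearson 95% intervals (Python 3.11.15, numpy 2.4.6, scipy 1.17.1, pandas 2.3.3, matplotlib 3.10.9). A ratio needed 50 UMIs over both classes, a call needed 2-fold, and a class at 0 was set to 3 counts. With 1 library per group no test was made. Total depth was 18980858 UMIs in the tumor table and 40914092 in the normal table. No doublet caller was run, and alternatives without mixed cells or without the deepest 5% of cells stand in its place. All 32 members are named, and of other lists up to 6 genes a list, by size, with 2-fold or more between TECs and NECs and at least 10 UMIs in each. A gene that this rule would name is not reported here. The ratio and its interval were checked on simulated counts. Gene positions are from GENCODE M21 and promoters from RefSeq, both on GRCm38, the assembly that mm10 names.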

Additional observations from a re-analysis of the deposited data

How the results depend on the processing

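Between TECs and NECs, 14 to 18 members were higher and 3 to 6 lower by 2-fold or more (by 1.5-fold under that alternative) in all 15 alternatives that were run, against 16 and 4. All 20 members called there kept their direction in each alternative, and 17 kept a ratio of 2-fold, the exceptions being Ldha, Pfkl and Vegfa in at least 1 alternative. With cells thinned to 1900 UMIs their log2 ratios were 0.68, 0.42 and -0.48. Ldha also fell short in several other alternatives. Its log2 ratios there ran from 0.86 without cells with a Top2a or Mki67 UMI to 0.99 when endothelial cells needed at least 1 Cdh5 UMI. Pfkl was at 0.96 without cells with a Top2a or Mki67 UMI, and Vegfa at -0.91 as a mean over cells. In the comparison of cancer-like cells with TECs, 17 were higher and 6 lower at 1.5-fold, by construction of the looser limit, against 11 and 3. Without cells with a Top2a or Mki67 UMI 20 were higher and 2 lower. The median log2 ratio over all genes was then -0.21, against 0.07, and the cause of this change was not tested. Among TECs, 21 were higher and 2 lower at 1.5-fold, against 12 and 1, and 2 were lower with no minimum of UMIs and 0 with the top 10% for Pgf and Apln, where Ddit4 was at a log2 ratio of -0.82. No share of all genes called is given for the alternatives, 1.5-fold included, so their counts of members have none to be set beside. No called member reversed in these 3 comparisons. Of 14 members called between cancer-like cells and TECs 10 kept a 2-fold ratio in all alternatives (not Ankrd37, Bnip3, Eno1 and Ero1l), and of 13 called among TECs 8 did (not Ddit4, Egln1, Ero1l, Ndrg1 and Pfkl). The alternatives without Top2a or Mki67 cells, without NECs with lymphatic, mural or fibroblast UMIs and without TECs with a cancer marker UMI were chosen after seeing the data, as was that of vessel types without lymphatic UMIs. No paired analysis was possible because each group holds 1 library. Depth limits Hk2 and Vegfa in TECs most, with 16 and 10 UMIs. The spread between mice or tumors was not measured, and library and condition cannot be told apart.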

Other observations

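Cycling cells gave a further view of the members within the tumor. Of the 239 ranked TECs, 81 had UMIs of at least 2 of the 7 mitotic markers, with a median of 27233 UMIs a cell against 14651 in the other 158, so depth moved with this split. The 13 glycolytic genes with 50 or more UMIs had a median log2 ratio of 0.34 between cycling and other cells, with 10 of them above 0, and the 17 other members a median of -0.06, beside -0.04 over all 7539 genes. Slc16a3 was at 109 CPM in cycling and 48.0 CPM in other cells (log2 ratio 1.19, interval 0.86 to 1.52), whereas Slc2a1 was at 125 and 120 CPM (0.06, interval -0.18 to 0.30). Pfkfb3 was at 27.2 and 72.0 CPM (log2 ratio -1.40, interval -1.85 to -0.97). Cycling cells made up 28.3% of the TECs with high Pgf and Apln and 35.8% of the others.

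Among NECs, the 636 cells assigned to no vessel type had Egln3 at 10.2 CPM and Eno1 at 226 CPM, against 1.85 to 4.39 CPM and 109 to 134 CPM in the 3 vessel types. Some markers of other cells were also higher there. The salivary genes Bpifa2 and Smr3a were at 2867 CPM (570 to 984 CPM in the 3 types) and 2303 CPM (306 to 572 CPM). The pericyte gene Rgs5 was at 209.5 CPM (71.8 to 106 CPM). The other salivary genes were not higher, with Dcpp1 at 331 CPM (242 to 405 CPM), Aqp5 at 5.61 CPM (5.27 to 6.44 CPM) and Prol1 at 0 CPM (0 to 0.370 CPM). Lyve1 was at 34.7 CPM, against 0 to 41.3 CPM. The part of these other cells in the Egln3 and Eno1 levels was not tested.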
